A study of Mus musculus with 12 samples.

Results

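The collagen, laminin and integrin genes of mouse N2A cells were examined, chosen by symbol as collagen chains, laminin alpha, beta and gamma chains, and integrin alpha and beta subunits, with integrin-binding proteins left out. They comprised 80 of the 19938 genes with a probe set of a single symbol, read by 83 of 35556 probe sets: 44 collagens, 10 laminins and 26 integrins. N2A is a mouse neuroblastoma line, and the study asked how Dali, a long non-coding RNA transcribed next to the neural transcription factor gene Pou3f3, takes part in its neural differentiation. RNA was measured on 12 Affymetrix Mouse Gene 1.0 ST arrays, 3 for each of 4 groups. Control cells carried a stably integrated scrambled short hairpin RNA (shRNA) and knockdown (KD) cells a stable shRNA against Dali, both isolated as hygromycin-resistant clones. Either kind was proliferating in medium with 10% serum, or had been held for 72 h in 20 µM all-trans retinoic acid (RA) with 2% serum, so that RA and the lower serum cannot be told apart. The labels do not say which clones were arrayed or whether replicates are clones or cultures of 1 clone. The p-values therefore measure only the spread between these arrays, and a difference between clones cannot be told apart from KD. No probe set was assigned to Dali, so the knockdown itself could not be checked here.

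Collagens are triple-helical matrix proteins. The fibrillar types form fibres, whereas type IV builds the sheet of basement membranes together with the laminins, which are cross-shaped trimers of an alpha, a beta and a gamma chain. Integrins are the transmembrane receptors, each a pair of an alpha and a beta subunit, that hold cells to these ligands and link them to the actin cytoskeleton; in the nervous system, laminins and their integrin receptors are known as a substrate for the outgrowth of neurites.

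The 12 arrays had medians between 7.15 and 7.21 on the log2 scale, and arrays of a group correlated with r of at least 0.992. Of 12 measured markers of sympathoadrenal neuroblastoma, 8 had a mean signal above the 75th percentile of all probe sets, whereas 0 of 40 markers of fibroblasts, smooth muscle, glia, endothelium, immune cells, platelets and epithelium did. Pdgfrb, on the fibroblast list, was nevertheless lower in KD cells by 0.85 ± 0.06 (SE, log2) when proliferating and 0.39 ± 0.06 after RA, while the other 8 genes of that list were not called in either state. The mean signal of the fibroblast list, Pdgfrb included, lay between 5.89 and 5.96 in control, 5.79 and 5.84 in KD, 5.91 and 5.99 in control RA and 5.80 and 5.95 in KD RA arrays. The median KD difference over this list was -0.05 when proliferating and -0.07 after RA. The part of the fibroblast list in the results was not tested. Of the sympathoadrenal markers, 5 were higher in proliferating KD cells (Dbh, Th, Mycn, Isl1 and Hand2) and 0 lower, though Chgb had -0.30 ± 0.06 (adjusted p = 0.00303), under the fold cutoff. After RA, Dbh was higher in KD cells and Chgb and Phox2a were lower. RA lowered 4 of these markers in control and 5 in KD cells, again with no test of their part. Among markers of other cell types RA changed only the endothelial Pecam1, with means from 6.99 to 6.36 in control and from 6.96 to 6.43 in KD cells. The fibroblast marker Pdgfrb had a called interaction, with means from 8.14 to 7.93 in control and from 7.29 to 7.54 in KD cells. The part of Pecam1 and Pdgfrb was not tested either. These are bulk samples, in which fewer cells of a type and less RNA per cell cannot be told apart.

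Between 1 and 5 of the 80 genes were called in each comparison. Calls required an adjusted p under 0.05 (Benjamini-Hochberg, limma, over all genes tested) together with a difference of at least 1.3-fold, or 0.38 on the log2 scale. The less variable 50% of genes were dropped first, a filter that 27 of the 80 passed and 53 did not. In proliferating cells KD changed 3 genes, beside 6.96% of all 9969 genes tested. After RA it changed 5, beside 7.71% of all genes tested. RA changed 3 genes in control cells (9.34% of all genes tested) and 2 in KD cells (9.94%), and the response to RA differed between KD and control cells for 1 gene (1.24%). Of the 27 genes tested, these counts were 11.1% and 18.5% for KD, 11.1% and 7.41% for RA and 3.70% for the difference in response, a description only, since genes passed the filter by their variation. The same counts were also set against a fit without it, in which the same numbers of genes were called: 3.75% of the 80 in proliferating KD cells beside 3.47% of all 19938 genes, 6.25% beside 3.87% in KD cells after RA, 3.75% beside 4.65% for RA in control cells, 2.5% beside 4.97% for RA in KD cells and 1.25% beside 0.466% for the difference in response. Altogether 9 genes were called in at least 1 comparison and 71 in none. They were the integrin genes Itga1, Itga2, Itga3 and Itga8, the laminin genes Lama4, Lama5 and Lamc1, and the collagen genes Col4a2 and Col14a1. The 3 fibrillar collagens and 3 integrin beta genes that passed the filter were called in no comparison.

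**Figure D1:**
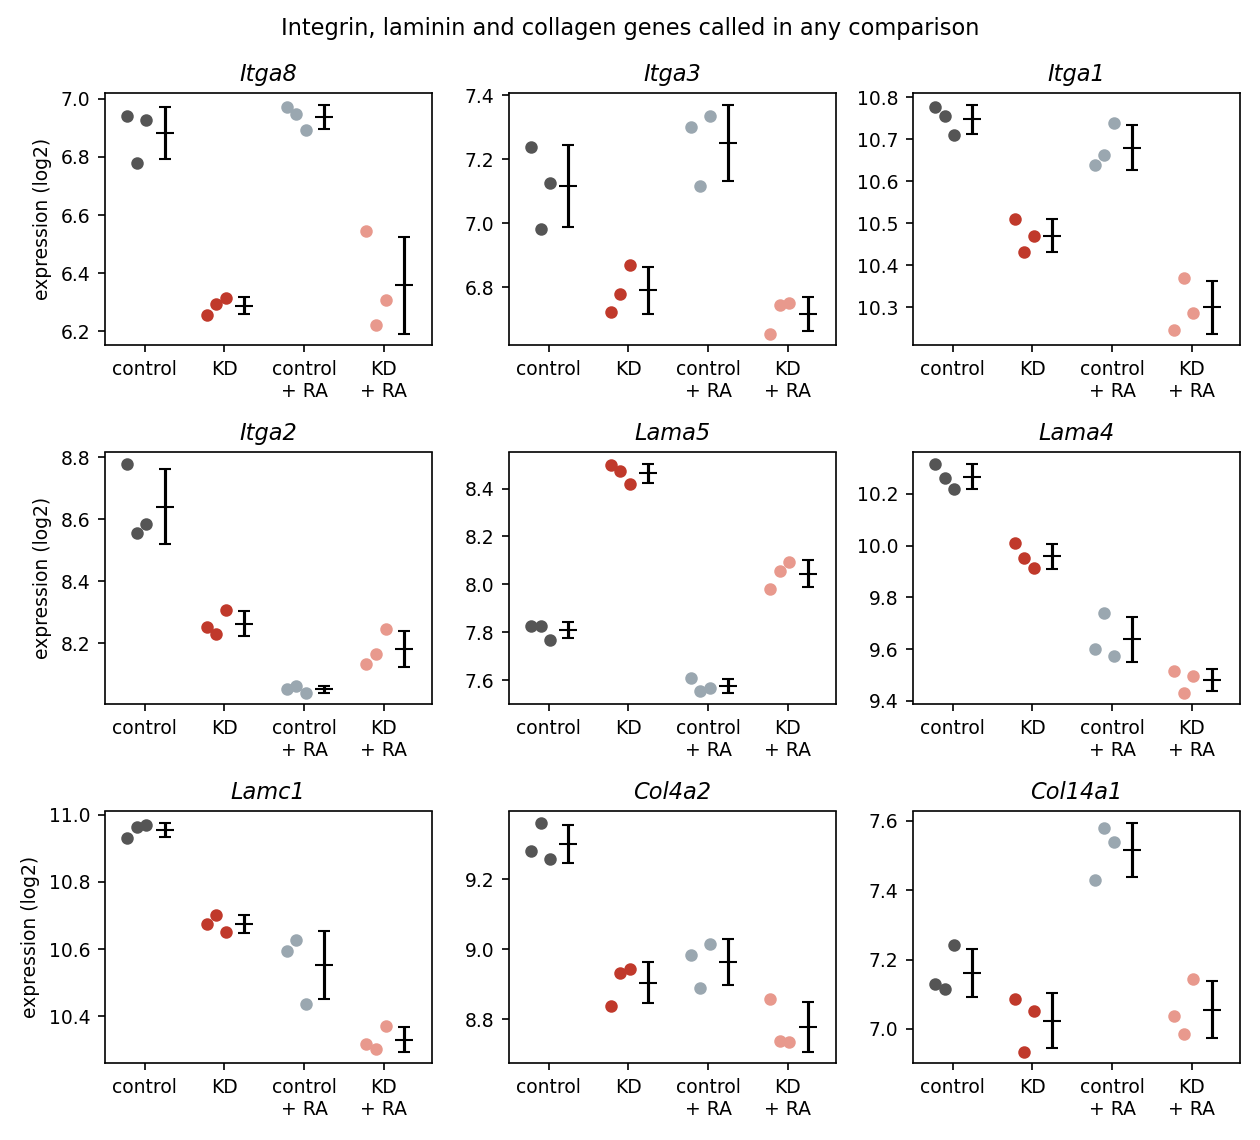
Expression (log2, RMA values) of the 9 genes called in any comparison, each panel with its own vertical axis. Dots are single arrays, and the bar beside them is the group mean with its SD (n = 3). The KD arrays of Itga8 lie between 6.22 and 6.55 in both states and the control arrays between 6.78 and 6.97, whereas Lama5 is higher in KD arrays and Itga2 differs between control and KD arrays mainly before RA.

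Itga8 encodes the alpha subunit that pairs with beta1 to bind RGD-containing ligands such as fibronectin and nephronectin. Its log2 values were 6.94, 6.78 and 6.93 in proliferating control arrays and 6.26, 6.29 and 6.31 in KD arrays. After RA they were 6.97, 6.95 and 6.89 in control and 6.55, 6.22 and 6.31 in KD arrays. Every KD array was thus below every control array in both states. Itga8 fell by 0.60 ± 0.08 (SE, log2; 1.51-fold, adjusted p = 0.00014) in proliferating KD cells and by 0.58 ± 0.08 (1.49-fold, adjusted p = 0.000158) after RA. RA itself gave a difference of 0.05 ± 0.08 in control and 0.07 ± 0.08 in KD cells, with 95% intervals from -0.11 to 0.22 and from -0.09 to 0.24.

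Lama5 moved the other way. It encodes the laminin alpha5 chain, a component of many basement membranes and a ligand of the alpha3beta1 and alpha6beta1 integrins. Proliferating control arrays had 7.83, 7.83 and 7.77, and KD arrays 8.50, 8.47 and 8.42. After RA, control arrays had 7.61, 7.56 and 7.57, and KD arrays 7.98, 8.06 and 8.09. The groups did not overlap in any of the 4 comparisons. Lama5 was higher in KD cells by 0.65 ± 0.05 when proliferating (1.57-fold, adjusted p = 2.18e-06) and by 0.47 ± 0.05 after RA (1.38-fold, adjusted p = 2.29e-05), the one rise called among the 80 genes in either state. RA lowered it by 0.42 ± 0.05 in KD cells (adjusted p = 2.41e-05). In control cells the difference was -0.23 ± 0.05, which passed the adjusted p (0.00188) but not the fold cutoff, and the 2 responses to RA were not called different (-0.19 ± 0.06, 95% interval -0.33 to -0.05, adjusted p = 0.157).

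Promoters are shown for Itga8 and Lama5, the 2 genes called in both states of KD, and for Itga1 and Itga2, 2 integrin genes that neighbour each other in gene order. DNA methylation and POU-domain factors were among the questions of the study. Each is the 250 bases before the annotated start, 5′ to 3′ on the gene's strand, from RefSeq on GRCm38.p6, with every CpG dinucleotide, the site that mammalian DNA methylation uses, in capitals. The windows are chr2:12301945-12302194 (Itga8), chr2:180225860-180226109 (Lama5), chr13:115101965-115102214 (Itga1) and chr13:114932101-114932350 (Itga2), all on the minus strand.
Itga8: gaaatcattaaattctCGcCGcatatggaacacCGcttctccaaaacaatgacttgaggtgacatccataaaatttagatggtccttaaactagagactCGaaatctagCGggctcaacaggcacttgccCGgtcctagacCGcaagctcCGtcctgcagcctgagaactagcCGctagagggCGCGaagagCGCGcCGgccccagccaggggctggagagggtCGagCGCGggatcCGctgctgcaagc
Lama5: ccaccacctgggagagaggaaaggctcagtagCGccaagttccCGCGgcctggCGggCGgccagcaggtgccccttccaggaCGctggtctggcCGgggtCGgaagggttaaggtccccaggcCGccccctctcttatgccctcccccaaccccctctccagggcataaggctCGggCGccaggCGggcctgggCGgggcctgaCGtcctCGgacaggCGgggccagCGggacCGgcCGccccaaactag
Itga1: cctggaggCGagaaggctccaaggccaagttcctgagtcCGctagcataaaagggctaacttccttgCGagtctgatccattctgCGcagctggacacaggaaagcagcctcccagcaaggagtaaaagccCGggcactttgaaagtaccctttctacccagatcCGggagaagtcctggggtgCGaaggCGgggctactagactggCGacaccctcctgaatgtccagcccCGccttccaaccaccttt
Itga2: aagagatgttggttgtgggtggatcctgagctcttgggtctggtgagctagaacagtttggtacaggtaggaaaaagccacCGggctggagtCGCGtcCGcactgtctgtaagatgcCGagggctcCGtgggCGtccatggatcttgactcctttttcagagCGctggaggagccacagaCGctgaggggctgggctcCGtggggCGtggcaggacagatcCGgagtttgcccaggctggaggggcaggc

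These windows hold 18 CpGs for Itga8, 19 for Lama5, 10 for Itga1 and 12 for Itga2, beside a median of 10 over the 64 windows of the 58 genes with an entry and of 6 over 32851 mouse windows of the same length. AGGTCA, the half-site of retinoid receptors, and ATGCAAAT, the octamer of POU factors, were searched on both strands. None of the 4 windows holds either. Over the 64 windows AGGTCA occurred in 12.5%, beside 14% of all windows, and ATGCAAAT in 3.12%, beside 1.6%. A match to these letters is a description of the window and says nothing of binding.

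Itga3 and Itga1, which also encode integrin alpha subunits, were lower in KD cells after RA. Itga3 encodes the alpha subunit of the laminin receptor alpha3beta1. After RA its values were 7.30, 7.12 and 7.34 in control arrays and 6.65, 6.74 and 6.75 in KD arrays, so that the groups were apart. It fell by 0.54 ± 0.08 (1.45-fold, adjusted p = 0.000264). In proliferating cells the values were 7.24, 6.98 and 7.13 against 6.72, 6.78 and 6.87. The groups were apart here too, and the difference of -0.33 ± 0.08 passed the adjusted p (0.00597) but not the fold cutoff; it passed both without control replicate 2 (-0.39). The difference between the states was not called (-0.21 ± 0.11, adjusted p = 0.339). The signals of Itga8 and Itga3 lay below the median of all genes, and neither gene was tested where genes of low signal were dropped.

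Itga1 encodes the alpha subunit of alpha1beta1, a receptor for collagen and laminin. Its values after RA were 10.64, 10.66 and 10.74 in control and 10.25, 10.37 and 10.29 in KD arrays. The call rested on a narrow margin: Itga1 fell by 0.38 ± 0.05 (1.301-fold, adjusted p = 0.00014), and by 0.35 without control RA replicate 3, 0.35 without KD RA replicate 1 and 0.37 without KD RA replicate 3, each of which is under the fold cutoff. In proliferating cells, with 10.78, 10.76 and 10.71 in control and 10.51, 10.43 and 10.47 in KD arrays, the difference was -0.28 ± 0.05 (adjusted p = 0.00111). Control and KD arrays were separate in both states.

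Itga2, which lies next to Itga1 in gene order, encodes the alpha subunit of the collagen receptor alpha2beta1 and was the 1 gene whose response to RA was called different between control and KD cells. Proliferating control arrays had 8.78, 8.56 and 8.59, and control arrays after RA 8.05, 8.06 and 8.04. KD arrays had 8.25, 8.23 and 8.31 when proliferating and 8.13, 8.16 and 8.25 after RA. Control cells were thus high before RA and low after it, whereas the KD arrays of both states overlapped and lay between the 2 control groups. RA lowered Itga2 by 0.59 ± 0.06 in control cells (1.50-fold, adjusted p = 1.35e-05). In KD cells the difference was -0.08 ± 0.06 (95% interval -0.21 to 0.05, adjusted p = 0.323). The interaction was 0.51 ± 0.08 (adjusted p = 0.0181). It missed the threshold without control RA replicate 3 (adjusted p = 0.0509) or KD replicate 2 (adjusted p = 0.0538), with values of 0.44 to 0.55 over all alternatives. Proliferating KD cells were below control cells by 0.38 ± 0.06 (1.298-fold, adjusted p = 0.000562), just under the fold cutoff, and past it without control replicate 2 (-0.42), control replicate 3 (-0.40) or KD replicate 3 (-0.40). After RA the difference was 0.13 ± 0.06 (adjusted p = 0.113).

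Among the other integrin genes, none was called. Itgb1 encodes the beta1 subunit, the shared partner of all the alpha subunits above. Its values were 11.59, 11.59 and 11.55 in control and 11.66, 11.67 and 11.62 in KD arrays, and after RA 11.33, 11.30 and 11.39 against 11.59, 11.59 and 11.51. KD arrays were above control arrays in either state, by 0.08 ± 0.04 and 0.22 ± 0.04, a direction opposite to that of Itga1, Itga3 and Itga8. The gene varied too little to be tested, and in the fit to all genes its adjusted p was 0.253 and 0.00325. Itgb5, whose product pairs with the alphav subunit to bind vitronectin, had KD differences of -0.24 ± 0.05 and -0.28 ± 0.05 (adjusted p = 0.00197 and 0.000694), and its partner Itgav of -0.13 ± 0.04 and -0.18 ± 0.04 (adjusted p = 0.0231 and 0.00444). Itga6, the alpha subunit of the laminin receptor alpha6beta1, had values of 12.17, 12.08 and 12.02 in control arrays and 11.82, 11.77 and 11.79 after RA, a difference of -0.30 ± 0.05 (adjusted p = 0.000652). In KD cells RA gave -0.18 ± 0.05 for Itga6. All these differences were under 1.3-fold.

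RA lowered 2 laminin genes in control cells. Lama4 encodes the alpha4 chain, found in basement membranes of vessels, muscle and nerve. Its values went from 10.32, 10.26 and 10.22 to 9.60, 9.74 and 9.57 in control cells and from 10.01, 9.95 and 9.91 to 9.51, 9.43 and 9.49 in KD cells. The proliferating and RA arrays did not overlap in either kind of cell. Lama4 fell by 0.63 ± 0.05 in control (1.55-fold, adjusted p = 3.58e-06) and by 0.48 ± 0.05 in KD cells (1.39-fold, adjusted p = 3.28e-05), and the responses were not called different (0.15 ± 0.08, adjusted p = 0.333). KD differences of Lama4 were -0.31 ± 0.05 when proliferating and -0.16 ± 0.05 after RA (adjusted p = 0.0011 and 0.0375), under the fold cutoff.

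Lamc1 encodes the gamma1 chain, shared by most laminin trimers. Control arrays had 10.93, 10.96 and 10.97 when proliferating and 10.59, 10.63 and 10.44 after RA. KD arrays had 10.67, 10.70 and 10.65, and 10.32, 10.30 and 10.37. Each of the 4 groups was separate from the groups it was compared with. RA lowered Lamc1 by 0.40 ± 0.05 in control cells (1.32-fold, adjusted p = 0.000101), but by 0.34, under the cutoff, without control RA replicate 3. The other differences passed the adjusted p and not the fold cutoff: -0.34 ± 0.05 for RA in KD cells, -0.28 ± 0.05 for KD when proliferating and -0.22 ± 0.05 for KD after RA.

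The remaining laminin genes were not called. In teratocarcinoma cells RA is classically known to induce the chains of laminin-111 and of type IV collagen. In N2A cells the RA difference of Lama1, the alpha1 chain, was 0.07 ± 0.05 in control and 0.04 ± 0.05 in KD cells, and that of Lamb1, the beta1 chain, 0.08 ± 0.07 and 0.11 ± 0.07. For Lamb1 the 95% intervals ran from -0.07 to 0.24 and from -0.04 to 0.26. Neither gene passed the variance filter. The gamma1 chain of laminin-111, encoded by Lamc1, was lower after RA, as given above. For the type IV chain Col4a1, RA gave -0.19 ± 0.05 in control cells (95% interval -0.29 to -0.09) and -0.04 ± 0.05 in KD cells. For Col4a2 it gave -0.34 ± 0.06 and -0.13 ± 0.06. These type IV differences were all under the fold cutoff. Lamb2, Lamb3 and Lamc3 had KD differences between -0.19 and -0.04 and RA differences between -0.05 and -0.01.

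Of the collagen genes, Col4a2 was lower in proliferating KD cells. It encodes the alpha2 chain of type IV collagen. Control arrays had 9.28, 9.36 and 9.26, and KD arrays 8.84, 8.93 and 8.94. The groups were well apart, and Col4a2 fell by 0.40 ± 0.06 (1.32-fold, adjusted p = 0.000255). The margin over the fold cutoff was small, with 0.37 without control replicate 2 and 0.36 without KD replicate 1. After RA the values were 8.98, 8.89 and 9.02 in control and 8.86, 8.74 and 8.74 in KD arrays, a difference of -0.19 ± 0.06 (adjusted p = 0.0197). RA gave -0.34 ± 0.06 in control cells (adjusted p = 0.000576), also under the cutoff, and the interaction was not called (0.21 ± 0.08, adjusted p = 0.193). Col4a1, the alpha1 chain with which the alpha2 chain forms its trimer, is its neighbour in gene order and is transcribed from the opposite strand. Its values were 8.75, 8.70 and 8.68 in control and 8.55, 8.57 and 8.59 in KD arrays. The KD difference of Col4a1 was -0.14 ± 0.05 when proliferating (95% interval -0.24 to -0.04) and 0.01 ± 0.05 after RA (-0.09 to 0.11), and the 2 genes were not tested against each other.

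Col14a1 encodes a collagen that associates with the surface of fibrils. After RA it had 7.43, 7.58 and 7.54 in control arrays and 7.04, 6.98 and 7.15 in KD arrays. These groups were apart, and Col14a1 fell by 0.46 ± 0.06 (1.38-fold, adjusted p = 0.000226). Proliferating arrays had 7.13, 7.11 and 7.24 in control and 7.09, 6.93 and 7.05 in KD cells, a difference of -0.14 ± 0.06 (adjusted p = 0.114). In control cells RA gave 0.35 ± 0.06 (1.28-fold, adjusted p = 0.00109), past the fold cutoff without control replicate 3 (0.39) or control RA replicate 1 (0.40), whereas in KD cells it gave 0.03 ± 0.06. The interaction of -0.32 ± 0.09 was not called (adjusted p = 0.0945).

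Col6a5, a type VI collagen chain of microfibrils, and Col20a1 were the 2 collagens with the largest positive KD differences. Col6a5 had 10.62, 10.49 and 10.56 in control and 10.80, 10.94 and 10.89 in KD arrays, and 10.38, 10.37 and 10.36 against 10.66, 10.74 and 10.75 after RA. KD arrays were above control arrays throughout, by 0.32 ± 0.05 and 0.34 ± 0.05 (adjusted p = 0.000558 and 0.000354), which is under 1.3-fold. For Col20a1, named here after its values were seen, the differences were 0.22 ± 0.07 and 0.37 ± 0.07. The classical collagens of fibroblasts were not called: Col1a1, Col1a2 and Col3a1 had KD differences between -0.17 and -0.04 and RA differences between -0.03 and 0.10 in either kind of cell. Col11a2 and Col2a1, cartilage-type fibrillar chains, had KD differences between -0.12 and -0.01. Col6a6, which adjoins Col6a5 in gene order, had -0.12 ± 0.07 and -0.09 ± 0.07. Its 95% intervals ran from -0.26 to 0.03 and from -0.24 to 0.05, so the sign is open in either state. Another probe set of Col6a6 had KD means above control means, at 6.45 beside 6.37 when proliferating and 6.46 beside 6.44 after RA.

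**Figure D2:**
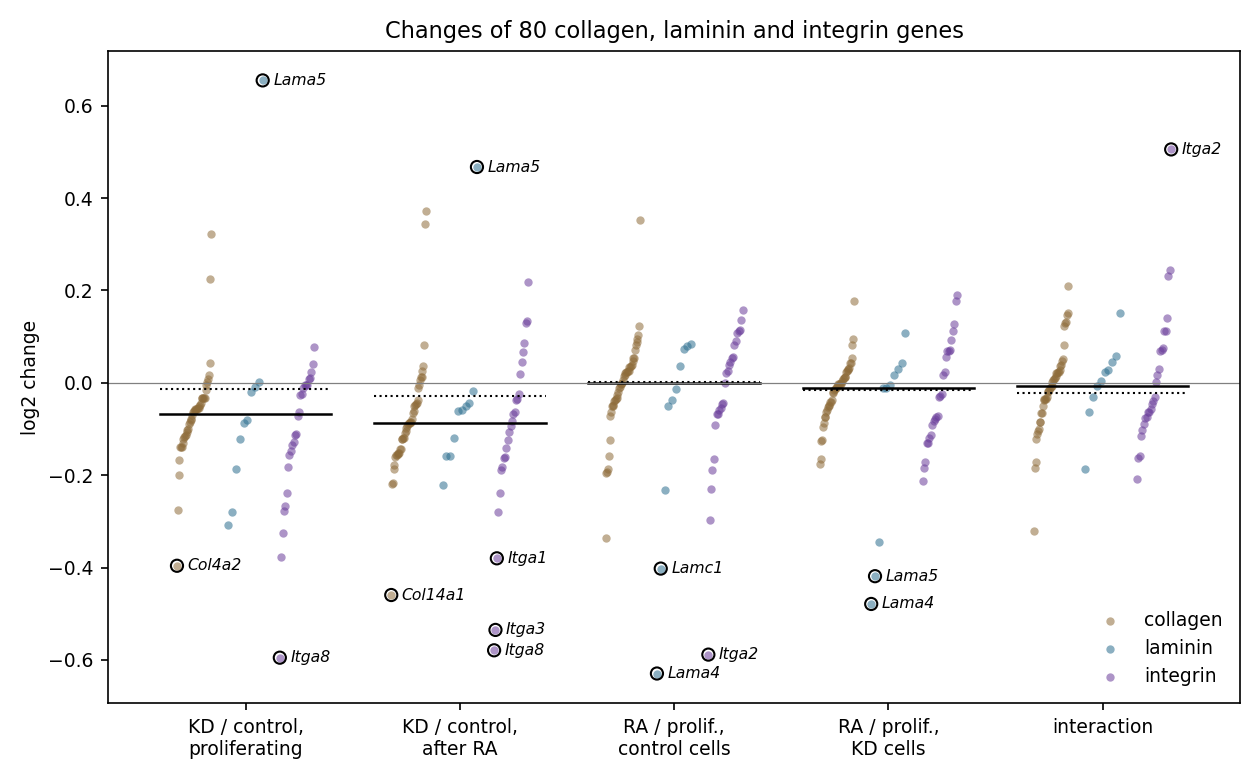
Log2 change of all 80 genes in the 5 comparisons, by family; the interaction is the RA change in KD cells less that in control cells. Circled and named dots are called genes, the solid line is the median of the 80 genes and the dotted line that of all 19938 genes. In both KD comparisons the solid line lies below the dotted one, at -0.07 against -0.01 and -0.09 against -0.03.

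Besides the called genes, most of the 80 leaned slightly downward in KD cells. The median log2 difference was -0.07 in proliferating cells, beside -0.01 over all 19938 genes, and 67 of the 80 (83.8%) were below 0, beside 53.7% of all genes. After RA the median was -0.09 beside -0.03, and 64 (80%) were below 0 beside 58.6%. In proliferating cells 29 genes had all 3 KD arrays below all 3 control arrays and 4 had them above, where 19% and 19.7% of all genes did so. After RA the counts were 21 and 6, beside 19.5% and 14.5%. The shift was small for most genes: 58 of the 80 in proliferating cells and 50 after RA lay within 1.1-fold of no change. Over all genes the shares were 69.4% and 66.1%. The 80 genes share the same 3 arrays per group, so their counts are not independent, and the lean was not tested. Within groups, the median of the 80 genes per array had a pooled SD of 0.06, of the same order as the lean. Most of the 80 genes have middling signals, with 65 in deciles 3 to 6 of all genes by mean level, and over the deciles the median of all genes ranged from -0.03 to 0.03 in proliferating cells and from -0.05 to -0.01 after RA. The files used here hold no detection call per probe set, so a gene of low signal cannot be told from one that is not expressed. For RA the medians were 0.00 in control and -0.01 in KD cells, beside 0.00 and -0.01 over all genes. RA arrays were separate from proliferating arrays for 14 genes lower and 4 higher in control cells (16.9% and 16.6% of all genes) and for 10 and 5 in KD cells (21.2% and 13.5%).

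By family, the medians of the KD difference in proliferating and RA cells were -0.08 and -0.09 for the 11 fibrillar collagens, -0.06 and -0.09 for the 8 basement membrane collagens, -0.06 and -0.09 for the 25 other collagens, -0.12 and -0.07 for the 18 integrin alpha genes and -0.04 and -0.10 for the 8 integrin beta genes. For the laminins they were -0.01 and -0.05 over the 5 alpha genes, -0.09 and -0.06 over the 3 beta genes and -0.20 and -0.17 over the 2 gamma genes. All 11 fibrillar collagens lay below 0 in both states, between -0.20 and -0.01 and between -0.22 and -0.04. Of the 80 genes, 69 had a 95% interval within 1.3-fold of no change in proliferating cells, 72 after RA, 74 for RA in control cells and 77 for RA in KD cells. For 8, 3, 3 and 1 genes the interval reached 1.3-fold without a call.

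KD differences in these data had been seen to run along stretches of neighbouring genes. The median KD difference of up to 50 protein-coding neighbours was therefore set beside each gene, averaged over both states. Only neighbours with a mean signal above the median of all genes were used. Itga1 and Itga2 lie in a stretch that was higher in KD cells, with medians of 0.27 over 36 neighbours and 0.28 over 37, and 83.3% and 83.8% of the neighbours above 0. Their own values in this mean were -0.33 and -0.12. For Itga2 the mean joins opposite signs, -0.38 when proliferating and 0.13 after RA, beside 0.24 and 0.23 for its neighbours. The neighbours of Col4a2 and Lama4 were also higher, with medians of 0.13 for either, against -0.29 and -0.23 for the genes themselves. For subtraction the neighbours' median of the same state was used, 0.15 for Col4a2 in proliferating cells and 0.23 for Itga1 after RA. The called differences then were -0.54 for Col4a2 in proliferating cells and -0.61 for Itga1 after RA. For Col14a1 the stretch itself was lower, with a median of -0.20 over both states and 8% of neighbours above 0. With the median after RA (-0.24) subtracted, the difference after RA was -0.22, under the cutoff. Neighbours of Itga8 (0.04), Itga3 (-0.02), Lama5 (0.01) and Lamc1 (0.02) had medians near 0. The 25 neighbours of Itgb1 had a median of 0.14, beside 0.15 for Itgb1 itself, but only in the mean of both states. By state these neighbours had 0.17 when proliferating and 0.13 after RA, beside 0.08 and 0.22 for Itgb1.

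**Figure D3:**
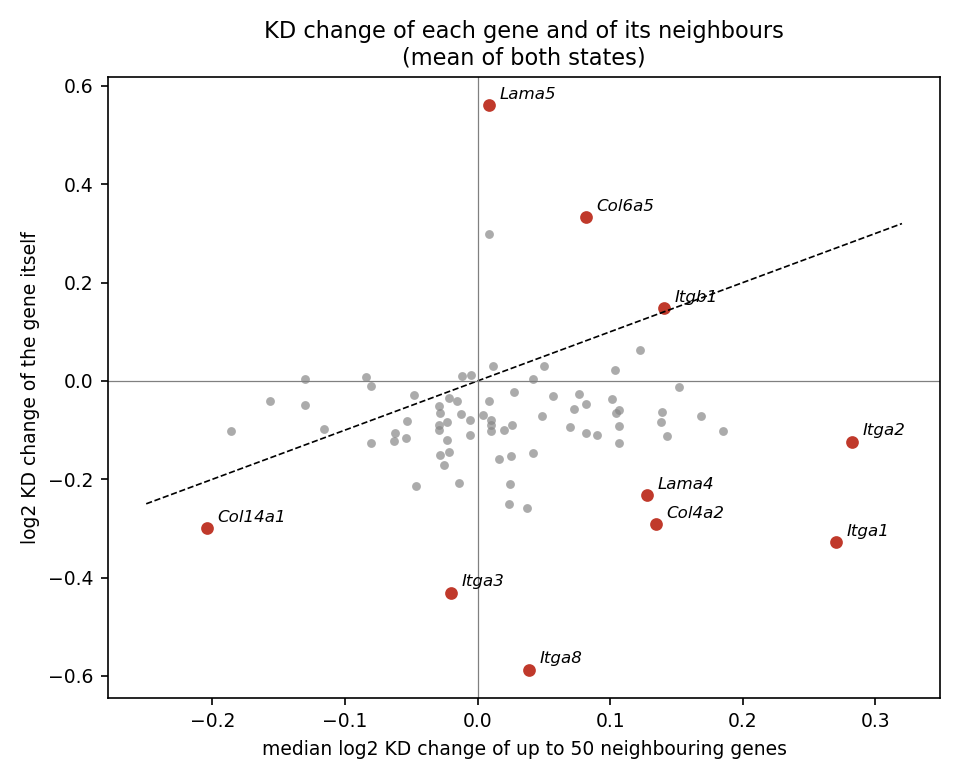
KD change of each gene (vertical, log2, mean of both states) against the median of its neighbouring genes (horizontal). The dashed line marks equal values. In this mean Itgb1 lies on the line and Col14a1 near it, though Itgb1 differs from its neighbours in either state alone. Itga1, Col4a2 and Lama4 lie well below the line, with neighbours above 0.

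Other matrix and adhesion genes were read from a list of 88, of which 83 were measured and 47 passed the variance filter. In proliferating KD cells, 2 of these 47 were called higher and 3 lower, beside 6.96% of all genes tested called in either direction. After RA 0 were higher and 3 lower, beside 7.71%. Sdc3, the neural heparan sulfate proteoglycan syndecan-3, had 8.92, 8.80 and 8.88 in control and 8.35, 8.31 and 8.19 in KD arrays, and fell by 0.58 ± 0.06 and, after RA, by 0.66 ± 0.06. Parvb, the focal adhesion adaptor beta-parvin that binds integrin-linked kinase, fell by 0.57 ± 0.07 and 0.47 ± 0.07. Sparc, a collagen-binding matrix glycoprotein, fell by 0.49 ± 0.05 in proliferating KD cells and Emilin1, an elastin-associated glycoprotein, by 0.41 ± 0.06 after RA. Without control RA replicate 3 Emilin1 was under the fold cutoff (-0.36). In the other state both were also lower in KD cells without a call. Sparc had means of 8.19 in KD and 8.48 in control arrays after RA, and Emilin1 7.66 and 7.93 when proliferating. Timp2, an inhibitor of matrix metalloproteinases, rose by 0.48 ± 0.08 and Tln2, which activates integrins through their beta tails, by 0.46 ± 0.05 in proliferating KD cells. After RA neither was called, with means of 7.46 in KD and 7.43 in control arrays for Timp2, and 8.48 and 8.27 for Tln2. The medians over the 83 genes were -0.06 and -0.04, beside -0.01 and -0.03 over all genes.

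RA lowered 8 of these genes in control cells and raised 1, and lowered 4 and raised 1 in KD cells. Over all genes tested, 9.34% were called for RA in control cells and 9.94% in KD cells. Fn1, which encodes fibronectin, had 11.03, 11.01 and 11.03 in proliferating control arrays and 10.43, 10.47 and 10.29 after RA, a fall of 0.63 ± 0.05. In KD cells RA gave -0.37 ± 0.05, under the fold cutoff, and the responses were not called different (0.26 ± 0.07, adjusted p = 0.0795). Hspg2, which encodes the basement membrane proteoglycan perlecan, fell by 0.61 ± 0.05 in control and 0.51 ± 0.05 in KD cells. Tgfbi, an integrin-binding matrix protein, fell by 0.69 ± 0.06 and 0.65 ± 0.06, and Pcolce, an enhancer of procollagen cleavage, by 0.66 ± 0.04 and 0.54 ± 0.04. The collagen hydroxylases P4ha1, P4ha2 and Plod2 fell by 0.58, 0.38 and 0.57 in control cells and were not called in KD cells. Their KD means fell as well, from 10.15 to 9.92, from 9.22 to 9.01 and from 9.23 to 8.96. In control cells P4ha2 was under the fold cutoff without control replicate 1 (-0.35) or control RA replicate 1 (-0.37) or 2 (-0.37). For P4ha1 the interaction was 0.35 ± 0.08 (adjusted p = 0.0601). Tns1, a focal adhesion protein, fell by 0.45 ± 0.05 in control cells. Npnt, which encodes nephronectin, a ligand of the alpha8beta1 integrin, rose by 0.47 ± 0.06 in control cells. Both moved the same way in KD cells, under the fold cutoff. Their KD means went from 9.12 to 8.82 for Tns1 and from 7.86 to 8.20 for Npnt. In KD cells RA raised Sparc by 0.49 ± 0.05 and lowered Timp2 by 0.44 ± 0.08. Sparc also rose in control cells, with means of 8.19 and 8.48, under the fold cutoff. None of the 47 genes had a called interaction.

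**Figure D4:**
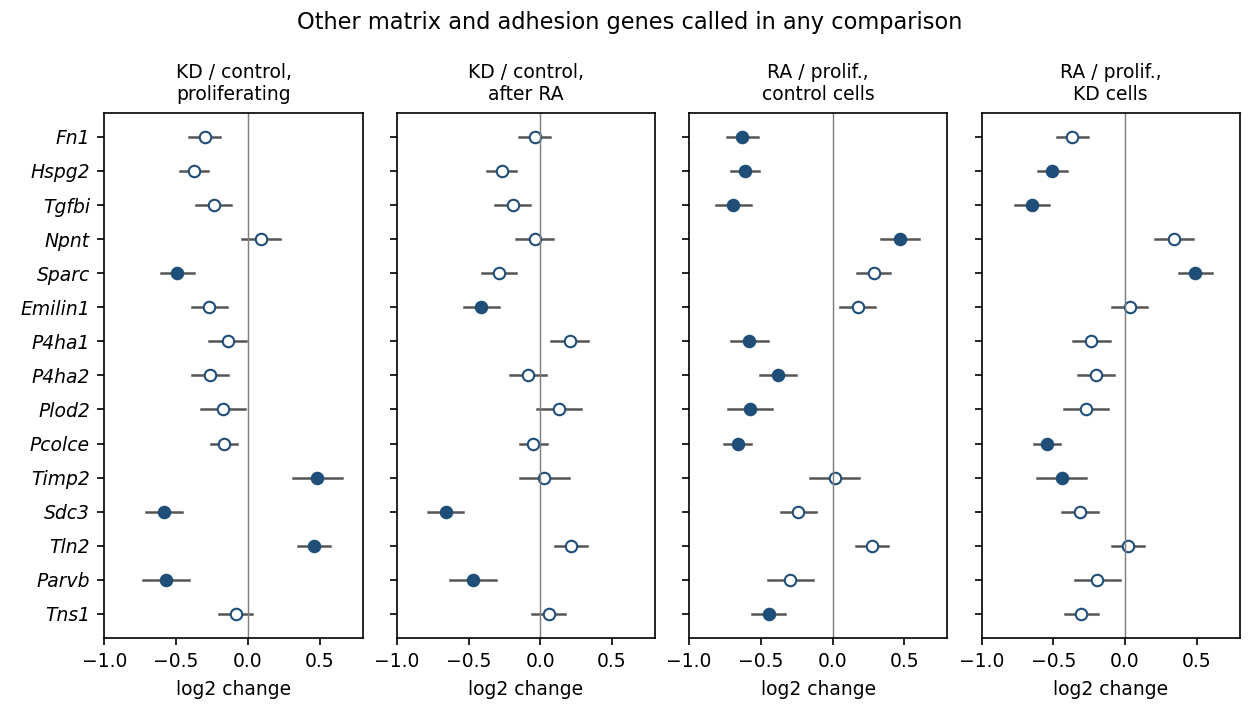
Log2 change with its 95% interval (limma) of the 15 other matrix and adhesion genes called in any comparison, in 4 panels for the 4 comparisons. Filled dots are called. Sdc3 and Parvb are filled in both KD panels, and Hspg2, Tgfbi and Pcolce in both RA panels.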

How the data were processed

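The deposited values are log2 expression levels that the authors obtained in R with RMA, which corrects background, quantile normalises and summarises probes per gene. RMA and limma are named in the submitters' processing notes. Their versions and the genome build of the array are not given in the sources read. Quantile normalised values do not show a change in the total RNA of a cell. Precision is limited by the number of arrays.

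A single gene symbol was attached to 21789 of 35556 probe sets, several to 1621 and none here to 12146. Symbols were checked by gene identifier against RefSeq (GRCm38.p6), where 21698 matched. Each gene was represented by its probe set of widest interquartile range, and of 19938 genes the 50% with the narrowest range were dropped, leaving 9969. Probe sets shared by Rpl35 and Itgam were not analysed here. Group means over all 12 arrays were fitted with limma 3.58.1 in R 4.3.3 (two-sided, without a replicate block) for 5 comparisons that share groups. Genes that did not pass the filter take their values from the same fit to all genes.

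Members and lists were chosen with earlier results of these data known. The text names every called gene, the 2 genes of highest mean signal in each of 8 classes, and up to 4 called genes per group of the list of other genes; further names are said to be chosen later or stand as background. Neighbours are up to 25 protein-coding genes on each side in RefSeq order, taken among genes with a mean signal above the median of all genes. The fit was tested on simulated data. Alternatives covered the filter, probe set choice, scaling, arrays in the fit, block, weights, prior and each array left out. Subtraction of the neighbours' median was added after the data were seen.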

Additional observations from a re-analysis of the deposited data

Results flagged for a closer look

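The response of Itga2 to RA differed between the 2 kinds of cell, with an RA difference of -0.59 ± 0.06 (SE, log2) in control and -0.08 ± 0.06 in KD cells and a called interaction of 0.51 ± 0.08 (limma, adjusted p = 0.0181). All 3 control arrays after RA lay below all 3 proliferating ones, whereas the KD arrays of the 2 states overlapped.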

How the results depend on the processing

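No value of a named gene changed direction if its 95% interval left out 0; of 49 values whose interval included 0, 20 changed sign under some setting, reaching at most 0.135. Without a fold cutoff the number of the 80 genes called went from 3 to 15 in proliferating KD cells, from 5 to 13 in KD cells after RA, from 3 to 10 for RA in control and from 2 to 9 for RA in KD cells. With genes below the median signal dropped in place of the variance filter, 3 were called in KD cells after RA. With 1 array left out, the counts ranged from 2 to 4, 4 to 5, 2 to 4, 2 to 2 and, for the interaction, 0 to 1. The median of the 80 genes moved by less than its spread between arrays (SD 0.06), between -0.09 and -0.06 in proliferating KD cells and between -0.13 and -0.05 after RA. Of 36 called values of named genes, 10 lost the call under some setting; besides those given with the results, Itga1 after RA did so with quantile normalisation repeated (-0.38) or array weights (-0.36), Tns1 when its probe sets were averaged (-0.29), and P4ha2 with arrays centred on their medians or with array weights (-0.37). Itga2 in proliferating KD cells was called with quantile normalisation repeated (-0.41).

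For arrays of equal replicate number in different groups, deviations from the group means correlated between -0.09 and 0.21, with 5 of 18 pairs over 0.1. For unequal numbers the range was -0.23 to 0.14. Of 12 arrays, 7 correlated best with their own number, so a weak pairing by number is not excluded. With the replicate number as a block, the same counts of the 80 genes were called (3, 5, 3, 2 and 1), and over all genes the interaction went from 124 to 94. Leaving out any of 10 single arrays took this count of all genes to between 41 and 82.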
